A study of Mus musculus with 28 samples.

Results

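The metallothionein and iron handling genes described here are Mt1, Mt2, Hamp, Hamp2, Tfrc, Slc40a1, Fth1, Ftl1, Hmox1 and Trf. They were taken by name, and all 10 were found among 35858 gene symbols in the liver and pancreas transcript tables and among 24845 gene rows in the liver and lung table. Bulk RNA-seq was performed in 28 tissues from mice that overexpress human APOBEC3B (A3B), a cytosine deaminase, and from control mice. The A3B sequence, fused to turboGFP, lies behind a tetO operator in the ColA1 locus of KH2 embryonic stem cells, and the constitutive CAGs-rtTA3 transgene drives it in most adult tissues when doxycycline (dox) is in the food. The question for these genes was how their transcripts differ between A3B and control mice in each tissue.

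The samples form a pair of sets that were processed differently. Set 2 holds livers from 6 A3B and 2 control mice and pancreases from 6 A3B and 2 control mice, all labelled with 10 days of dox food at 625 ppm. The study's methods, like the labels, give dox to the controls, but another passage of its text names the pair of set 2 controls as undosed. If the latter holds, dox and genotype cannot be told apart in set 2. Set 1 holds livers and lungs from 3 A3B and 3 control mice each. The A3B livers of set 1 are labelled with 14 days (mice 23 and 28) or 10 days (mouse 70), the A3B lungs with 10 days and the set 1 controls with 15 days, so that time and genotype cannot be told apart there. Most controls carry the A3B allele without the driver. The exceptions are control liver 11, labelled with both transgenes, and control lung 87, labelled with the driver. In set 2 the genotype labels of the pancreases also go against the sample titles for mice 44 and 137 (titled A3B, labelled without driver) and for mice 45 and 168 (titled control, labelled with both transgenes). Groups were taken from the titles throughout. Each sample is a separate mouse within its tissue, but mice 44, 49, 125, 137, 153, 45 and 168 gave both a liver and a pancreas, and mice 70 and 91 gave both a liver and a lung. In bulk tissue, fewer cells of a type and less RNA per cell cannot be told apart.

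The transgene itself was measured in set 1 only. Human A3B reached 1705, 705 and 1585 TPM (transcripts per 1e+06) in the A3B livers 23, 28 and 70 and 90.6 to 281 TPM in the A3B lungs, against 0.0928 to 0.526 TPM in all 6 controls, control liver 11 included. Depth in set 2 was 65.2 to 119 estimated counts (in units of 1e+06) per liver and 74.8 to 95.6 per pancreas. The depth of set 1 is unknown, and levels were not compared between sets. Hepatocyte markers (7 of 7 detected in every liver) summed to 82764 and 140301 TPM in the control livers of set 2 and 31668 to 79888 TPM in the A3B livers. Alb made up most of the control sums (54669 and 107806 TPM), and Alb and Ttr were lower in every A3B liver. Apoa1, Apob, Cps1, Fgb and Serpina1c ranged both below and above the controls in A3B livers. Apoa1, for example, read 13551 and 14386 TPM in controls and 8031 to 17763 TPM in A3B livers. Acinar markers summed to 135933 and 148374 TPM in the control pancreases and 66960 to 175843 TPM in the A3B pancreases, but single markers parted in opposite directions. Pnlip was 35134 and 36336 TPM in the controls and 219 to 1857 TPM in A3B mice, Cela3b 30271 and 37094 TPM and 9894 to 20194 TPM, and Ctrb1 24605 and 25751 TPM and 35180 to 113874 TPM. Lung epithelial markers summed to 18227 to 20618 TPM in the lungs.

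Metallothioneins are small cysteine-rich proteins that bind zinc and copper. Their genes are induced through the zinc sensor MTF1 and by glucocorticoids and inflammatory cytokines. Iron circulates bound to transferrin (Trf), enters cells through the transferrin receptor (Tfrc), is stored in a shell of ferritin heavy and light chains (Fth1, Ftl1), is released from heme by heme oxygenase (Hmox1), and leaves cells through ferroportin (Slc40a1). The liver controls this traffic with hepcidin (Hamp), a hormone that closes ferroportin and is itself raised by iron stores through BMP and SMAD signalling and by interleukin 6 through STAT3.

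The widest shared pattern was in the metallothioneins, whose mean TPM was higher in A3B than in control mice in all 4 comparisons of tissue and set. In the pancreas this held in TPM and with total-count scaling. On the TMM scale the groups overlapped there for both genes, neither gene passed, and the Mt1 difference turned to −0.02 without control pancreas 168. Mt2 and Tfrc rose and Trf fell in the livers of set 2. In the pancreases Hmox1 rose and Hamp2 fell, and in the lungs Mt1 and Mt2 rose. No gene of the 10 passed the test in the livers of set 1. Fold changes were tested with edgeR's quasi-likelihood test on counts scaled by TMM (set 2) or with limma on log2(TPM + 1) (set 1), and a gene passed at an adjusted p under 0.05.

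These counts stand beside those of the whole transcriptome. In the livers of set 2, 3 of the 10 genes passed, beside 3.66% of all genes tested (2 higher, beside 1.26%, and 1 lower, beside 2.41%). After TMM scaling 5 of the 10 had groups that did not overlap, Ftl1 among them, which did overlap in TPM, beside 27.9% of all genes (3 higher, beside 15%, and 2 lower, beside 12.8%). Among the pancreases 2 of the 10 passed, beside 31.9% (1 higher, beside 17%, and 1 lower, beside 14.9%), and the same 2 had groups that did not overlap after TMM scaling, beside 44% (25.1% higher, 18.9% lower). Of the lung values 2 passed, both higher, beside 36.8% of all genes in either direction and 16.1% higher (20.8% were lower), and 3 had groups that did not overlap, beside 53.9% (2 higher, beside 23.3%, and 1 lower, beside 30.6%). Over both directions the shares in the pancreas and lung were below those of all genes, while the 2 lung calls among the 10 genes were a slightly larger share than the 16.1% of all genes that were higher. For the livers of set 1 limma called 0 of the 10 genes, beside 7.93% of all genes (6.07% higher, 1.86% lower). An unadjusted p under 0.05 was found for 3 of the 10, beside 3755 of 11507 genes tested. For 6 the groups did not overlap, beside 38.9% (4 higher, beside 28.5%, and 2 lower, beside 10.3%). There the count past the threshold was also 0 with a pseudocount of 0.1 TPM, with no filter and after centring on the median gene. The median log2 fold change of the 10 genes was 0.51 in the livers of set 2, where the median of all genes was 0.21. It was 0.81 against 0.09 in the pancreases, −0.15 against 0.39 in the livers of set 1 and −0.03 against −0.06 in the lungs.

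The pancreas values moved with the scaling. The TMM factors of the control pancreases were 0.210 (mouse 45) and 0.443 (mouse 168), while those of the A3B pancreases lay between 1.30 and 1.79. In plain TPM 9 of the 10 genes were higher in every A3B pancreas than in both controls, and Hamp2 was lower in every one. Total-count scaling moved the median of all genes to 2.29 in the pancreas and 0.68 in the livers of set 2, and changed the calls of all genes from 3250 higher and 2843 lower to 13473 higher and 210 lower in the pancreas. For the livers of set 2 the same change turned 218 higher and 418 lower calls into 879 higher and 241 lower. Centring turned 699 higher and 214 lower calls in the livers of set 1 into 271 higher and 458 lower. Pancreas differences below are given on the TMM scale, with the total-count value where it differs in call.

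**Figure D1:**
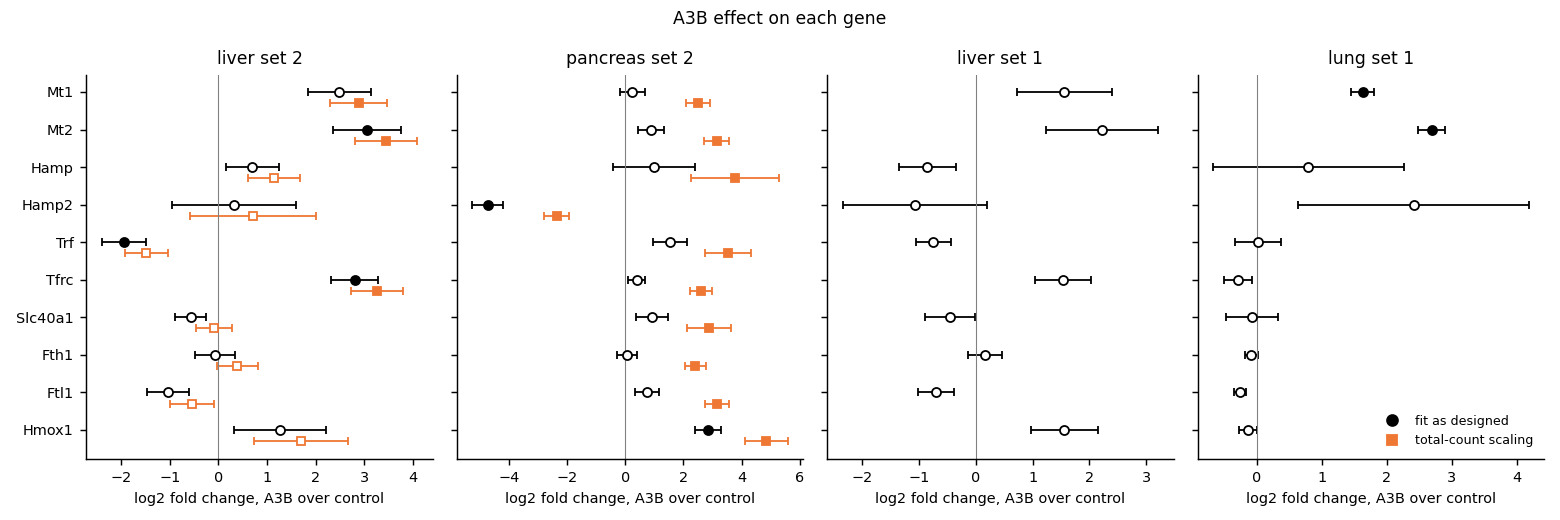
Log2 fold change of A3B over control for each gene (horizontal axis) in the 4 comparisons, with bars of 1 standard error. Black circles are the fits as designed, orange squares use total-count scaling (set 2 only), and filled symbols passed an adjusted p of 0.05. In the pancreas all 10 squares are filled, while of the circles only Hamp2 (−4.75) and Hmox1 (2.84) are.

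Mt1 and Mt2 lie side by side on mouse chromosome 8, Mt2 at chr8:94172664-94173568 and Mt1 at chr8:94179082-94180327, both on the forward strand (GRCm38, GENCODE M21). Their promoters are shown because both genes had a higher mean TPM in A3B mice in every tissue, with calls as given below. The lines below give the bases from 250 to 11 before the RefSeq start site (GRCm38.p6) of Mt1 at chr8:94178839-94179078 and of Mt2 at chr8:94172368-94172607, with matches to the core of the metal response element bound by MTF1 in capitals.
Mt1 promoter: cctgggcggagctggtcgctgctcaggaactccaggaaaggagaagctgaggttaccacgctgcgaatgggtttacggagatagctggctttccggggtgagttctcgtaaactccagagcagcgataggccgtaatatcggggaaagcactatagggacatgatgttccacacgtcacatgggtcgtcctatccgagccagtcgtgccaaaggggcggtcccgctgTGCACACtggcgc
Mt2 promoter: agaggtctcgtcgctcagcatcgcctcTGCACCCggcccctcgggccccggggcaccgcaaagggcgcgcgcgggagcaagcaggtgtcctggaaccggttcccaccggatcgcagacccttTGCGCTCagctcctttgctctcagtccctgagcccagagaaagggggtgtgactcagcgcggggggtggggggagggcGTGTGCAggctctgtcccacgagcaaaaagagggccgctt
The core was searched as TGCACNC or TGCGCNC on both strands. In the window of 250 bases before to 50 after the start, Mt1 held 3 matches and Mt2 held 4, some of them past the start and so outside the printed stretch. Of 32851 promoter windows, 25.7% held at least 1 match, 1.97% at least 3 and 0.517% at least 4. A match describes the letters only.

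Among the set 2 livers, Mt1 stood at 354 and 515 TPM in the control mice 45 and 168. The A3B livers read 3188 (mouse 44), 2324 (137), 1137 (49), 4724 (125), 3685 (48) and 3572 TPM (153). Every A3B liver lay above both controls, with mouse 49 the lowest of them. Mt2 read 204 and 337 TPM in the controls and 2896, 1798, 1153, 4434, 3733 and 2924 TPM in the same order of A3B livers, again without overlap and with mouse 49 lowest. Mean Mt2 was 270 ± 94.3 TPM (SD, n = 2) for the controls and 2823 ± 1206 TPM (SD, n = 6) for A3B. By edgeR, Mt2 rose by 3.05 on the log2 scale (SE 0.70, adjusted p = 0.0452), whereas the difference of Mt1, 2.48 (SE 0.65), missed the threshold with an adjusted p of 0.0641.

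The Mt2 call in these livers was close to the threshold. It was lost without A3B liver 44 (log2 fold change 3.05, adjusted p = 0.0842), 137 (3.16, 0.0777), 125 (2.78, 0.0710) or 153 (3.06, 0.0648), and without control liver 45 (2.52, 0.377) or 168 (3.59, 0.244). Mt1 passed in edgeR without A3B liver 49 (2.59, adjusted p = 0.0165), with total-count scaling (2.89, 0.0289), with DESeq2 (2.41, 0.00056) and with limma on TPM (2.73, 0.0216). Leaving out 1 liver moved the fold change of Mt2 between 2.52 and 3.59 and that of Mt1 between 2.06 and 2.84, all in the same direction.

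In the pancreases the TPM values looked much like those of the liver. Mt1 read 419 and 622 TPM in the controls and 3606 (44), 2408 (53), 2162 (49), 3415 (125), 4843 (137) and 3346 TPM (153) in the A3B mice. Mt2 read 260 and 384 TPM in the controls and 1857 to 4270 TPM in A3B mice. Neither overlapped in TPM. After TMM scaling, however, Mt1 covered 415 to 1293 CPM (counts per 1e+06) in A3B pancreases and 841 and 557 in the controls 45 and 168, and the groups overlapped. Mt2 overlapped too, at 316 to 1022 CPM in A3B pancreases and 411 and 259 CPM in the same controls. The TMM-scaled difference was 0.23 (SE 0.43, adjusted p = 0.710 by edgeR) for Mt1 and 0.87 (SE 0.45, adjusted p = 0.162) for Mt2. With total-count scaling both passed, at 2.49 (adjusted p = 0.000359) and 3.14 (adjusted p = 0.000132).

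In the lungs, where the transgene was lower than in the liver, both metallothioneins rose. Mt1 read 400, 372 and 303 TPM in the control lungs 87, 88 and 91 and 1175, 1311 and 871 TPM in the A3B lungs 69, 70 and 74. Mt2 read 65.5, 81.1 and 55.1 TPM in the controls and 409, 555 and 361 TPM in the A3B lungs. The groups were well apart for both genes. By limma the log2 fold change was 1.63 (SE 0.18, adjusted p = 0.00313) for Mt1 and 2.69 (SE 0.20, adjusted p = 0.00173) for Mt2. Both passed in all 9 alternative fits, with Mt1 between 1.50 and 1.80 and Mt2 between 2.52 and 2.83.

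The livers of set 1 were less even. Mt1 read 333, 2648 and 3693 TPM in the control livers 11, 91 and 92, against 4579, 4030 and 4530 TPM in the A3B livers 23, 28 and 70. Mt2 read 76.8, 911 and 1417 TPM in the controls and 2015, 2107 and 2396 TPM in the A3B livers. All A3B livers were above all controls, but control liver 11 lay far below the other controls, below every other liver of the set. The log2 fold changes, 1.56 for Mt1 (SE 0.83, adjusted p = 0.231 by limma) and 2.22 for Mt2 (SE 0.99, adjusted p = 0.166), fell to 0.48 (adjusted p = 0.289) and 0.93 (adjusted p = 0.106) without control liver 11.

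**Figure D2:**
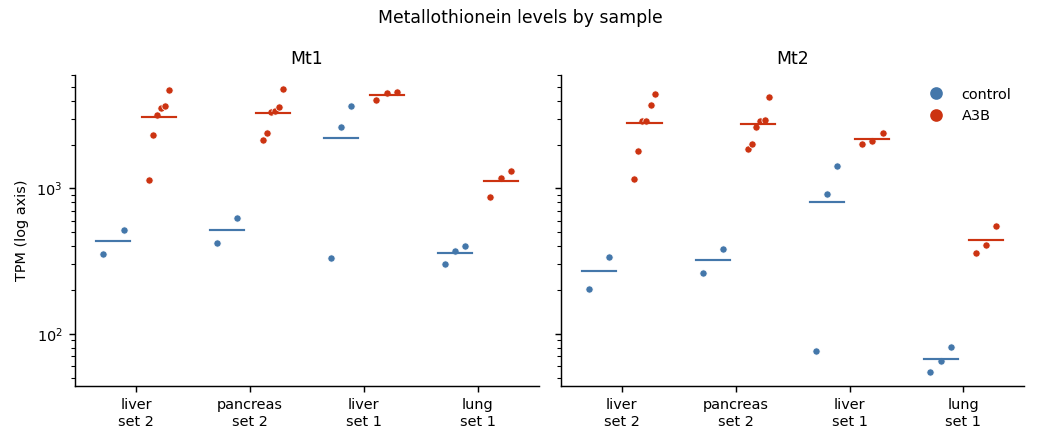
Mt1 and Mt2 in TPM (log axis) for each sample in the 4 comparisons of tissue and set, controls in blue and A3B in red, with a line at the group mean. In TPM the A3B samples lie above all controls of their tissue and set in every panel (in the pancreas both genes overlap after TMM scaling), and control liver 11 of set 1 (333 TPM Mt1, 76.8 TPM Mt2) lies apart from the other set 1 control livers.

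The ratio of Mt2 to Mt1, taken within a sample and so free of scaling between samples, was compared after the values had been seen and is given without a test. It was 0.576 and 0.655 in the control livers of set 2 and 0.774 to 1.01 in the A3B livers. In the pancreases it was 0.621 and 0.617 in controls and 0.729 to 0.882 in A3B mice. In set 1 the control livers had 0.231, 0.344 and 0.384 and the A3B livers 0.440, 0.523 and 0.529, while the control lungs had 0.164, 0.218 and 0.182 and the A3B lungs 0.348, 0.423 and 0.415. The A3B ratio was above the control ratio without overlap in each of the 4 comparisons, so Mt2 made up a larger part of the metallothionein transcripts in A3B tissues, in the pancreases too.

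**Figure D3:**
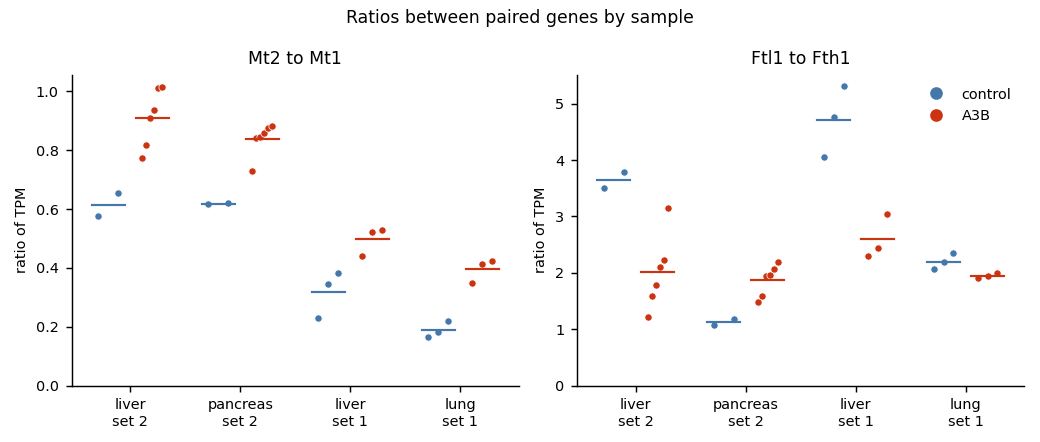
Ratio of Mt2 to Mt1 TPM (left) and of Ftl1 to Fth1 TPM (right) for each sample, both axes from 0, controls in blue, A3B in red, line at the group mean. The Mt2 to Mt1 ratio is higher in A3B samples in all 4 comparisons, while the Ftl1 to Fth1 ratio is lower in A3B livers and lungs and higher in A3B pancreases.

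Hamp encodes hepcidin and lies at chr7:30942368-30944032 on the reverse strand. Its neighbour Hamp2, at chr7:30922372-30924681 on the same strand, is a duplicate whose peptide lacks the iron regulating action of hepcidin in mice. The stretch from 130 to 61 bases before each start (RefSeq, GRCm38.p6, reverse strand) is shown because it holds the letters of the STAT site TTCNNNGAA and, in Hamp, of the BMP response element core GGCGCC, both in capitals. The Hamp stretch is chr7:30944090-30944159 and the Hamp2 stretch chr7:30924242-30924311.
Hamp: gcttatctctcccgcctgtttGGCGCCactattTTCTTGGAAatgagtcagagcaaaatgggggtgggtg
Hamp2: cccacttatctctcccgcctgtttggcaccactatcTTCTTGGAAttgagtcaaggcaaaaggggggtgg
At the best ungapped shift 60 bases are identical, counted over the part of the 70-base stretches that overlaps after the shift. TTCNNNGAA was present in 8.3% and GGCGCC in 11.9% of all promoter windows, on either strand. Within its window Hamp2 holds TTCNNNGAA but not GGCGCC. Because the transcripts of the pair are alike, reads may have been split between them with some error.

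Hamp was abundant in the liver and did not pass in either set. In set 2 it read 3076 and 5624 TPM in the control livers and 12159 (44), 11726 (137), 5555 (49), 7754 (125), 11643 (48) and 5689 TPM (153) in the A3B livers. The A3B livers 49 and 153 lay at the level of control 168, and the other A3B livers above it. The difference was 0.70 (SE 0.54, adjusted p = 0.469 by edgeR). In set 1 the sign was the opposite, with 2746, 4329 and 4549 TPM in the controls and 3289, 988 and 2850 TPM in the A3B livers 23, 28 and 70, a difference of −0.85 (SE 0.50, adjusted p = 0.275 by limma). The sets differ in processing and in days of dox, and their difference was not tested.

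Hamp2 varied more between mice than between groups in the liver. It read 1174 and 73.8 TPM in the control livers of set 2 and 59.2 (mouse 49) to 2448 TPM (mouse 48) in the A3B livers. In set 1 the control livers were closer together, at 316, 732 and 853 TPM, against 29.4 to 1312 TPM in the A3B livers. Its liver differences were 0.31 (SE 1.28, adjusted p = 0.908 by edgeR) in set 2 and −1.07 (SE 1.27, adjusted p = 0.575 by limma) in set 1.

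In the pancreas Hamp2 fell. The controls read 171 and 169 TPM, and the A3B pancreases 55.4 (44), 10.2 (53), 41.4 (49), 27.3 (125), 46.2 (137) and 26.8 TPM (153). Every A3B pancreas was below both controls, which differed little from each other. The erythroid markers (9 genes) went the same way, with sums of 2113 and 2774 TPM in the controls and 42.5 to 915 TPM in A3B pancreases. Of the acinar markers given above, Pnlip and Cela3b were also lower in every A3B pancreas, while Ctrb1 was higher and the acinar sum overlapped. The part of erythroid or acinar cells in the Hamp2 result was not tested. On the TMM scale Hamp2 fell by 4.75 (SE 0.53, adjusted p = 0.000422 by edgeR), and it passed in all 13 alternative fits with values from −5.22 to −2.37, total-count scaling giving −2.37 (adjusted p = 0.000724). Hamp in the same organ was at 4.99 and 0.516 TPM in the controls and 6.05 to 131 TPM in A3B mice, and on the TMM scale edgeR made no call (difference 0.98, SE 1.40, adjusted p = 0.626). It passed with total-count scaling (3.78, adjusted p = 0.0456) and with limma on TPM (3.03, adjusted p = 0.0494). Without control pancreas 45 the edgeR difference was 4.52 (adjusted p = 0.193), without control 168 it was 0.03 (0.990), and without A3B pancreas 49 it was 0.38 (0.850). The control pancreases thus held 34.2 and 328 times as much Hamp2 as Hamp in TPM, whereas the A3B pancreases held 0.315 to 4.51 times as much.

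Hamp and Trf were most abundant in the livers of their set, so albumin (Alb) is given beside them outside the liver. The hepatocyte markers (7 of 7 detected in every sample) summed to 66.4 and 18.7 TPM in the control pancreases 45 and 168 and 102 to 946 TPM in the A3B pancreases. Alb was 32.7 and 1.19 TPM in those controls and 10.4 (53), 19.1 (125), 94.0 (153), 120 (137), 454 (49) and 634 TPM (44) in A3B mice. The highest Hamp in a pancreas (131 TPM, mouse 49) stood beside 454 TPM of Alb, and the lowest (0.516 TPM, control 168) beside 1.19 TPM. The order was not the same throughout, since mouse 44, with the most Alb, held 28.7 TPM of Hamp, less than mouse 137 with 63.3 TPM, and mouse 53 held more Hamp than control 45 (7.23 against 4.99 TPM) with less Alb. In the lungs Alb read 0.331, 245 and 23.6 TPM in the controls 87, 88 and 91 and 3.83, 190 and 216 TPM in the A3B lungs 69, 70 and 74, and Hamp followed the same order of samples within controls at 20.9, 234 and 65.5 TPM. Hamp in the A3B lungs was 18.3, 338 and 273 TPM, and Hamp2 was 1.34, 53.2 and 108 TPM, against 0.322, 15.7 and 3.11 TPM in controls. Trf was also high where Alb was low, at 1522 TPM beside 0.331 TPM of Alb in control lung 87. In A3B pancreas 53 it was 482 TPM beside 10.4 TPM. The highest Trf still stood beside the highest Alb in the pancreases (557 TPM beside 634 TPM, mouse 44) and the lungs (3039 TPM beside 245 TPM, control 88). The part of liver RNA in these values was not tested. Neither Hamp nor Hamp2 passed in the lung (Hamp 0.80, SE 1.46, adjusted p = 0.700, and Hamp2 2.41, SE 1.77, adjusted p = 0.329, by limma).

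**Figure D4:**
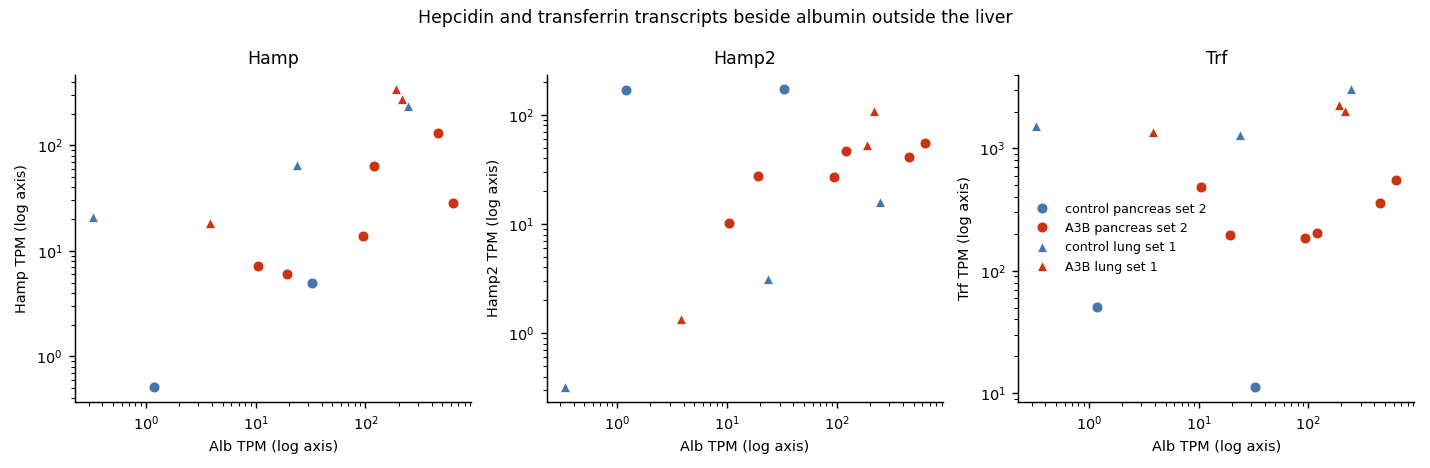
Hamp, Hamp2 and Trf TPM against Alb TPM (all axes logarithmic) in pancreases (circles) and lungs (triangles), controls in blue and A3B in red. Samples with more Alb tend to hold more Hamp, while the control pancreases hold the most Hamp2 (171 and 169 TPM) at 32.7 and 1.19 TPM of Alb.

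Trf encodes transferrin, the plasma iron carrier, and lies at chr9:103204001-103230444 on the reverse strand. Set 2 livers read 16473 and 15245 TPM in the controls and 6262 (44), 5437 (137), 6719 (49), 4178 (125), 6690 (48) and 8262 TPM (153) in the A3B mice, with no A3B liver near a control. The mean was 6258 ± 1372 (SD, n = 6) against 15859 ± 868 TPM (SD, n = 2), and Trf fell by 1.94 on the log2 scale (SE 0.46, adjusted p = 0.0486 by edgeR). Alb, not one of the 10 genes, went the same way, from 54669 and 107806 TPM to 19353 to 44124 TPM. After TMM scaling mouse 48 had the lowest Trf at 4231 CPM, against 6380 to 11082 CPM in the other A3B livers. The controls 45 and 168 held 28995 and 28588 CPM. The short retained-intron transcript Trf-209 took 17.2% of Trf TPM in control and 29.1% in A3B livers, as shares of group means. The Trf call was lost with total-count scaling (−1.48, adjusted p = 0.0672), with limma on TPM (−1.37, 0.0875), with no filter (−1.95, 0.0612), without A3B liver 44 (−1.99, 0.10), 137 (−1.97, 0.103), 125 (−1.98, 0.0766) or 153 (−2.09, 0.0584), and without control liver 45 (−2.02, 0.291) or 168 (−2.03, 0.299). The direction held in each of them.

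In set 1, liver Trf read 19370, 25539 and 27154 TPM in controls and 11654, 13521 and 18024 TPM in A3B mice, again without overlap, and the difference of −0.75 (SE 0.31, adjusted p = 0.140 by limma) did not pass. The hepatocyte marker sum was also lower there without overlap, at 8026 to 9208 TPM in controls and 5917 to 7031 TPM in A3B livers, while Alb overlapped. Its part in the Trf values was not tested. In the pancreas the order of Trf was the reverse, with 11.3 and 50.1 TPM in the controls and 185 to 557 TPM in the A3B mice. That difference was 1.54 (SE 0.59, adjusted p = 0.0709 by edgeR). It passed without A3B pancreas 153 (1.69, adjusted p = 0.0461), with DESeq2 (1.49, 0.0161) and with total-count scaling (3.54, 0.0026). Lung Trf was alike in both groups, at 1292 to 3039 TPM in controls and 1371 to 2246 TPM in A3B lungs (difference 0.02, SE 0.36, adjusted p = 0.972 by limma).

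Tfrc, Slc40a1, Fth1 and Ftl1 share a feature that the choice of genes did not use. Each carries an iron responsive element, a hairpin that the iron regulatory proteins bind when iron is low. In a 5′ UTR it holds back translation (ferritins, ferroportin), and in the 3′ UTR of Tfrc it protects the transcript. The elements are printed as 30 bases with the CAGTG of the loop in capitals, found in GENCODE M21 transcripts (GRCm38) as C, then 5 bases, then CAGTGN, with 5 stem pairs. They lie at chr19:9982732-9982761 (Fth1, forward strand), chr7:45459778-45459807 (Ftl1, reverse), chr1:45925464-45925493 (Slc40a1, reverse) and, on the forward strand in the Tfrc 3′ UTR, at chr16:32631219-32631248, chr16:32631598-32631627, chr16:32631663-32631692 and chr16:32631710-32631739.
Fth1 5′ UTR: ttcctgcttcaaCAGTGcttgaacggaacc
Ftl1 5′ UTR: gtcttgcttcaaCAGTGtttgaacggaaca
Slc40a1 5′ UTR: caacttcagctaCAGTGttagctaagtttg
Tfrc 3′ UTR, by position: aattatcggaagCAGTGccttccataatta
Tfrc 3′ UTR, next: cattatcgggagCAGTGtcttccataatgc
Tfrc 3′ UTR, next: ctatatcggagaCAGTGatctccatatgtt
Tfrc 3′ UTR, last: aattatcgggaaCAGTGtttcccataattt
The pattern was found in 4 of the 10 genes and in 1.01% of 21901 protein-coding genes. Of the genes that carry it, only Tfrc passed in any of the 4 comparisons.

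Tfrc, the receptor that takes up transferrin, lies at chr16:32608920-32632794. In the livers of set 2 it read 2.77 and 1.62 TPM in the controls and 33.1 (44), 21.3 (137), 11.0 (49), 9.64 (125), 20.2 (48) and 17.2 TPM (153) in the A3B mice. Every A3B liver was well above both controls, and Tfrc rose by 2.80 on the log2 scale (SE 0.48, adjusted p = 0.0175 by edgeR). It stayed past the threshold without any single A3B liver (2.61 to 2.86, adjusted p 0.00893 to 0.0458) and in DESeq2, total-count scaling, limma and the fit with Y-chromosome expression, but not without control liver 45 (2.71, adjusted p = 0.181) or 168 (2.72, adjusted p = 0.198). Erythroid markers (9 genes), whose precursor cells carry much Tfrc, summed to 4351 and 1329 TPM in the controls and 129 to 807 TPM in the A3B livers. The globins carried that sum. Of the precursor markers, Alas2 read 13.1 and 28.3 TPM in the controls and 3.50 to 42.8 TPM in the A3B livers, and Klf1 read 0.0169 and 2.97 TPM and 0 to 9.11 TPM, both with overlap. Their part in the Tfrc result was not tested.

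The A3B livers of set 1 held 1.56, 1.51 and 7.14 TPM of Tfrc (23, 28 and 70), against 0.406, 0.270 and 0.203 TPM in the controls. The groups did not overlap, but the levels were close to the filter of 1 TPM, and the difference of 1.53 (SE 0.49) had an adjusted p of 0.0854 by limma. Without A3B liver 70 the gene fell under the filter and gave no value.

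In the pancreas Tfrc read 1.80 and 3.28 TPM in the controls and 8.17 to 18.8 TPM in A3B mice, but on the TMM scale the difference was 0.38 (SE 0.30, adjusted p = 0.351 by edgeR), and with total-count scaling 2.60 (adjusted p = 0.000196). The makeup of the reads also differed there. The full coding transcript Tfrc-201 took 28.2% of Tfrc TPM in control and 69.8% in A3B pancreases, and the retained-intron transcript Tfrc-204 took 60.7% and 16.1%, all of them shares of group means. Tfrc-201 itself was at 0.169 and 1.27 TPM in the controls, which differed widely, and at 6.55 to 15.3 TPM in the A3B pancreases. Lung Tfrc showed no call, at 2.47 to 4.76 TPM in controls and 2.25 to 3.53 TPM in A3B lungs (difference −0.28, SE 0.21, adjusted p = 0.333 by limma).

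Slc40a1, ferroportin, at chr1:45908068-45926523 on the reverse strand, passed in none of the comparisons. Set 2 livers read 118 and 107 TPM in controls and 45.1 (mouse 48) to 167 TPM (mouse 44) in A3B mice, with the controls inside that range (difference −0.57, SE 0.32, adjusted p = 0.318 by edgeR). Set 1 control livers read 84.5 to 105 TPM and the A3B livers 44.7, 56.0 and 136 TPM (−0.45, SE 0.44, adjusted p = 0.500 by limma). The pancreas held 0.627 and 5.08 TPM in controls and 8.77 to 39.2 TPM in A3B mice, with a TMM-scaled difference of 0.92 (SE 0.56, adjusted p = 0.232 by edgeR) that passed only in total-count scaling (2.88, adjusted p = 0.00668) and in limma on TPM (2.51, adjusted p = 0.00235). In the lung it was 4.28 to 9.55 TPM in controls and 3.49 to 10.4 TPM in A3B mice.

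**Figure D5:**
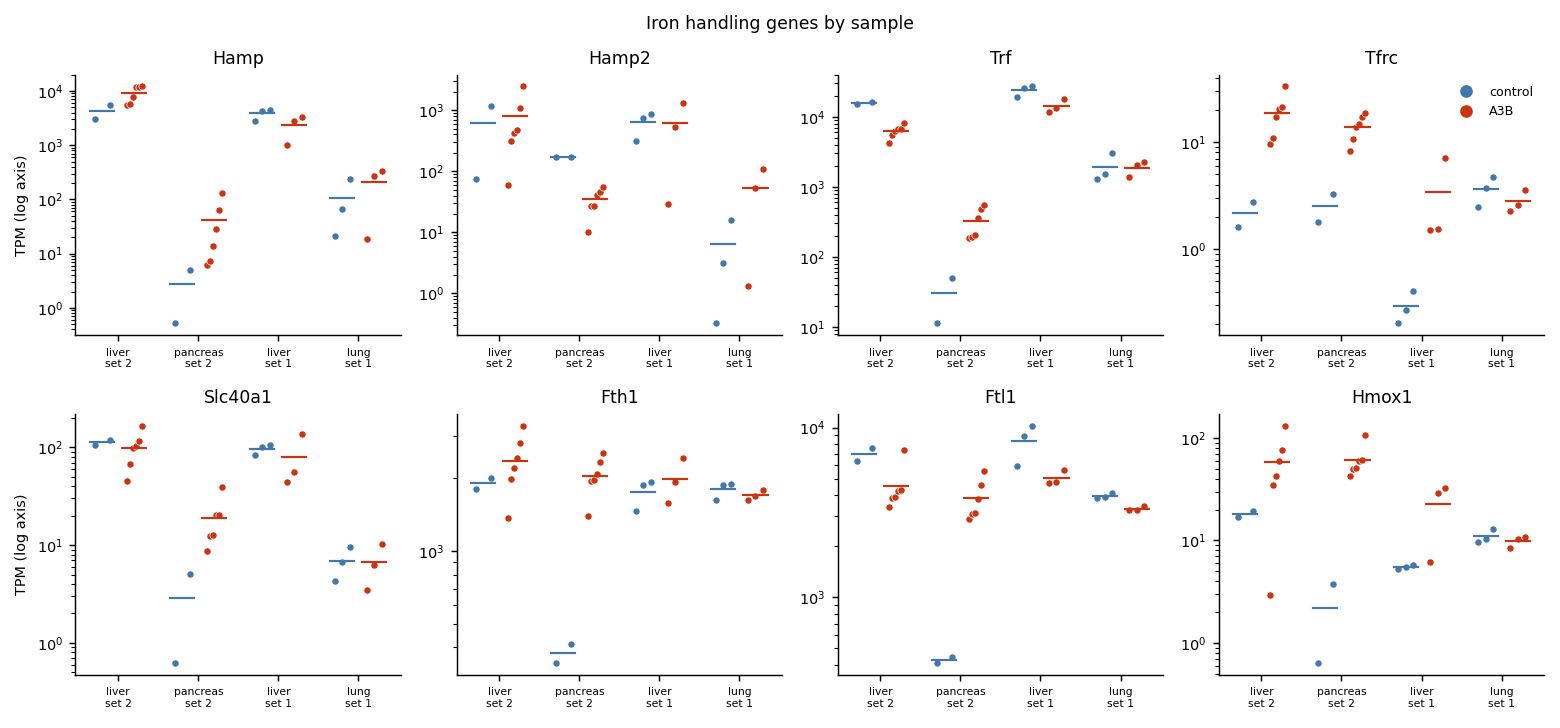
TPM per sample (log axis) of the 8 iron handling genes in the 4 comparisons, controls in blue, A3B in red, line at the group mean. Tfrc lies apart in the livers (9.64 to 33.1 TPM in A3B, 1.62 and 2.77 TPM in controls of set 2), Trf lies lower in A3B livers of both sets, and in the pancreas every gene but Hamp2 is higher in A3B mice in TPM.

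The ferritin chains were among the most abundant transcripts of the group. Fth1, the heavy chain with ferroxidase activity, read 1810 and 2003 TPM in the control livers of set 2 and 1368 to 3298 TPM in the A3B livers, with a difference of −0.07 (SE 0.41, adjusted p = 0.934 by edgeR) whose sign was positive with total-count scaling (0.39). It read 1632 to 1889 TPM in control and 1620 to 1791 TPM in A3B lungs. Ftl1, the light chain, was lower in most A3B livers. In set 2 it read 6341 and 7600 TPM in controls and 3922 (44), 3865 (137), 7360 (49), 3404 (125), 4303 (48) and 4204 TPM (153) in A3B mice, so that mouse 49 alone sat between the controls. The difference was −1.03 (SE 0.43, adjusted p = 0.190 by edgeR), and without mouse 49 it was −1.29 (adjusted p = 0.0453). In set 1 Ftl1 read 5930, 8950 and 10251 TPM in control livers and 4700, 5603 and 4792 TPM in A3B livers (−0.70, SE 0.31, adjusted p = 0.166 by limma).

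In the lungs Ftl1 read 3900, 3838 and 4104 TPM in controls and 3435, 3249 and 3258 TPM in A3B mice. All A3B lungs were below all controls, by a small amount (−0.25, SE 0.09, adjusted p = 0.0637 by limma), and the gene passed when no filter was used (adjusted p = 0.0478). In the pancreas Ftl1 rested at 412 and 446 TPM in the controls and 2889 to 5564 TPM in A3B mice, and Fth1 at 346 and 415 TPM and 1393 to 2532 TPM. On the TMM scale these gave 0.75 (SE 0.40, adjusted p = 0.181 by edgeR) and 0.04 (SE 0.34, adjusted p = 0.934), and with total-count scaling both passed, at 3.15 (adjusted p = 8.83e-05) and 2.41 (adjusted p = 0.000156).

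The ratio of Ftl1 to Fth1 within a sample, again chosen after the values were seen and untested, differed by tissue. It was 3.50 and 3.79 in the control livers of set 2 and 1.21 to 3.14 in the A3B livers, and 4.06 to 5.31 against 2.30 to 3.04 in set 1. In the lungs it was 2.07 to 2.35 in controls and 1.92 to 2.01 in A3B mice. In the pancreas it ran the other way, with 1.19 and 1.08 in controls and 1.48 to 2.20 in A3B mice. None of the 4 comparisons overlapped. Ferritin pseudogenes resemble both chains, and how their reads were shared was not tested.

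Hmox1, the inducible heme oxygenase, lies at chr8:75093621-75100589. In the pancreas it read 0.641 and 3.76 TPM in the controls and 50.7 (44), 106 (53), 60.5 (49), 59.7 (125), 49.7 (137) and 42.1 TPM (153) in the A3B mice. No A3B pancreas came near a control, and the means were 61.5 ± 22.9 (SD, n = 6) and 2.20 ± 2.21 TPM (SD, n = 2). Hmox1 rose by 2.84 on the log2 scale (SE 0.45, adjusted p = 0.0015 by edgeR) and passed in all 13 alternative fits, with values between 2.35 and 4.85. Macrophages are rich in this enzyme. Macrophage markers (9 genes) summed to 10.8 and 48.3 TPM in the control pancreases, with Vsig4 at 0 in mouse 45, and to 620 to 1702 TPM in the A3B pancreases, with Clec4f at 0 in mouse 53. Mouse 53 had both the highest marker sum and the highest Hmox1. Ductal markers, at 55.5 and 107 TPM in the controls and 1280 to 3032 TPM in A3B mice, and fibroblast markers, at 37.9 and 168 TPM and 940 to 1441 TPM, were also apart in TPM. The part of any of them in the Hmox1 result was not tested.

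Liver Hmox1 in set 2 read 17.0 and 19.4 TPM in the controls and 59.1 (44), 35.0 (137), 75.7 (49), 132 (125), 2.94 (48) and 42.5 TPM (153) in A3B mice. All A3B livers except mouse 48 were above the controls, and mouse 48 was far below them. The macrophage markers were also lowest in mouse 48, at 33.7 TPM in sum, against 323 to 1101 TPM in the other A3B livers and 346 and 394 TPM in the controls. The difference was 1.26 (SE 0.95, adjusted p = 0.454 by edgeR). Set 1 liver Hmox1 read 5.31 to 5.76 TPM in the controls and 29.1, 32.4 and 6.13 TPM in A3B livers 23, 28 and 70. The 2 livers labelled with 14 days were high and the one with 10 days was near the controls. The difference was 1.56 (SE 0.58, adjusted p = 0.117 by limma), and without A3B liver 70 it was 2.28 and passed (adjusted p = 0.0141). The macrophage marker sum did not follow that order, at 256, 795 and 885 TPM. Lung Hmox1 was 9.57 to 13.0 TPM in controls and 8.48 to 10.9 TPM in A3B lungs.

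Whether an A3B effect differed between organs was tested by interaction. Between pancreas and liver in set 2, 2 of the 10 genes passed in edgeR, 1 lower and 1 higher, beside 11.9% of all genes (5.03% lower, 6.87% higher). The Tfrc difference was smaller in the pancreas than in the liver by 2.24 on the log2 scale (pancreas minus liver −2.24, SE 0.53, adjusted p = 0.0157), and the Trf difference was higher by 3.67 (SE 0.98, adjusted p = 0.0251). Since most of these mice gave both organs, mouse was also fitted as a block, in which Tfrc passed (−1.97, adjusted p = 0.0186), Trf did not (3.34, adjusted p = 0.124) and Hamp2 passed (−4.17, adjusted p = 0.0418), after −4.88 (SE 1.66, adjusted p = 0.0678) without the block. With total-count scaling Tfrc no longer passed (−0.66, adjusted p = 0.378), Trf did (5.03, adjusted p = 0.00136), and Slc40a1, Fth1, Ftl1 and Hmox1 passed too. For Mt1 and Mt2 the values were −2.09 (adjusted p = 0.0831) and −2.02 (adjusted p = 0.0979).

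Between liver and lung in set 1, limma called 0 of the 10 genes, beside 10.7% of all genes (8.81% higher, 1.94% lower). An unadjusted p under 0.05 was found for 2 of the 10, beside 4026 of 13477 genes tested. Tfrc was the nearest, at 1.82 (SE 0.56, adjusted p = 0.0609). It passed with mouse as a block (2.05, adjusted p = 0.0196) and with a pseudocount of 0.1 TPM (3.16, adjusted p = 0.0312). The metallothionein response of the lung was therefore not shown to differ from that of the set 1 livers.

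The wider pathways were followed with lists of genes that exclude the 10. In the pancreas their counts moved with the scaling as those of all genes did. With total-count scaling 13 of 15 genes of the zinc list rose and 1 fell, and 19 of 22 of the hepcidin regulation list rose. Of the iron list 16 of 18 rose, of the heme list 16 of 20, and of the acute phase list 8 of 12 rose and 1 fell. In that fit 13473 of all 19123 genes rose and 210 fell. Of the zinc and metallothionein list, 1 gene of 13 tested fell and none rose in the livers of set 2, beside 2.41% and 1.26% of all genes, with a list median of −0.018 beside 0.21 for all genes. The gene was Slc39a4, a zinc importer, at 52.0 and 53.8 TPM in controls and 5.32 to 39.1 TPM in A3B livers (−2.21, adjusted p = 0.0418 by edgeR), a call lost with total-count scaling and with limma on TPM, without A3B liver 44, 137, 125 or 153 and without either control. In each of those 2 fits Slc39a5 passed instead, higher in A3B livers, and the list median was 0.43 beside 0.675 for all genes with total-count scaling and 0.36 beside 0.40 with limma. In the pancreas 5 of 15 rose and 3 fell, beside 17% and 14.9% of all genes, with a list median of 0.21 beside 0.09. Mt3, a metallothionein best known from the brain, rose from 0.250 and 0.497 TPM to 26.1 to 37.1 TPM (3.85, adjusted p = 0.00101 by edgeR). Slc39a4 rose (2.60, adjusted p = 0.00244) and Slc39a5, a zinc importer of the acinar and intestinal basolateral membrane, fell (−3.59, adjusted p = 0.000302). In the lung 2 of 11 rose and none fell, beside 16.1% and 20.8% of all genes. They were Slc39a14, an importer of zinc and of iron not bound to transferrin, from 73.3 to 91.9 TPM in controls to 198 to 265 TPM (1.50, adjusted p = 0.00236 by limma), and Mtf1, the zinc sensor (0.35, adjusted p = 0.0317, lost without any of the 6 lungs). For the livers of set 1, 2 of 13 rose (beside 6.07% of all genes), Slc39a14 (1.39, adjusted p = 0.0497 by limma) and the zinc exporter Slc30a1 (1.52, adjusted p = 0.0439), and both calls were lost after centring and with no filter. The Slc39a14 call was also lost without any 1 of the 6 livers, and that of Slc30a1 without control liver 91 or 92 or A3B liver 23 or 70.

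Of the 22 genes of the hepcidin regulation list in the livers of set 2, DESeq2 called 2 higher and 2 lower, beside 1300 and 1096 of 17365 genes. Total-count scaling gave 2 higher and 1 lower, beside 879 and 241. By edgeR with TMM, 1 of the 22 fell and none rose, beside 2.41% and 1.26% of all genes. It was Tmprss6, the protease that restrains hepcidin by cleaving the BMP coreceptor hemojuvelin, at 276 and 343 TPM in controls and 56.5 to 154 TPM in A3B livers (−2.13, adjusted p = 0.0218 by edgeR). The call was lost without A3B liver 44 (adjusted p = 0.0519) or 137 (0.0612) and without control liver 45 (0.138) or 168 (0.146). In the pancreas 10 of 22 rose and none fell, beside 17% of all genes higher and 14.9% lower, with a list median of 1.02 beside 0.09. Among them were Socs3, the feedback inhibitor of STAT3 signalling (3.20, adjusted p = 0.000544 by edgeR), Smad1 (1.61, adjusted p = 0.00192) and the BMP receptor Bmpr1a (1.30, adjusted p = 0.00329). In the lung 7 of 21 rose and 1 fell, beside 16.1% and 20.8% of all genes, with Il6ra, the interleukin 6 receptor, at 7.17 to 9.63 TPM in controls and 21.9 to 24.2 TPM in A3B lungs (1.30, adjusted p = 0.00257 by limma). Of 21 genes in the livers of set 1, 2 rose (beside 6.07% of all genes), Bmpr1a and Stat3. Both calls were lost after centring, with no filter and without any 1 of the livers other than control 11.

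Of the list of iron uptake, storage and sensing, Lcn2 had the largest change. It encodes lipocalin 2, which binds bacterial siderophores and is raised in inflammation. Among 18 genes in the livers of set 2 it was the 1 that rose, beside 1.26% of all genes. It went from 5.21 and 12.8 TPM in controls to 490 to 2768 TPM (7.21, adjusted p = 0.00525 by edgeR, and 6.71 without control liver 168, where the call was lost). Among 15 genes in the livers of set 1 it was the 1 that rose, beside 6.07% of all genes, from 2.77 to 10.8 TPM to 140 to 210 TPM (4.63, adjusted p = 0.0109 by limma, and 4.68 with adjusted p = 0.0722 without control liver 91). In the pancreas 6 of 18 rose and 2 fell, beside 17% and 14.9% of all genes (list median 0.22 beside 0.09), with Lcn2 at 3.01 and 3.28 TPM in controls and 3348 to 11171 TPM in A3B mice (8.81, adjusted p = 0.000264 by edgeR), and Cp, the plasma ferroxidase ceruloplasmin, higher by 2.49 (adjusted p = 0.000351). In the lung 3 of 17 rose and 2 fell, beside 16.1% and 20.8%, and Lcn2 was not among them, at 17.3 to 24.0 TPM in controls and 24.4 to 31.3 TPM in A3B lungs. Steap3, the ferrireductase of the endosome in which transferrin gives up its iron, fell there from 20.5 to 23.6 TPM to 6.46 to 8.78 TPM (−1.40, adjusted p = 0.00237 by limma).

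Of 20 heme handling genes, 0 passed by edgeR in the livers of set 2. There 6 had an unadjusted p under 0.05, beside 3985 of 17365 genes tested. DESeq2 called 2 higher and 2 lower, beside 1300 and 1096 of the same 17365 genes. Of the same 20 genes, 7 rose and 3 fell in the pancreas (beside 17% and 14.9% of all genes), 1 rose in the livers of set 1 (the heme exporter Flvcr1, beside 6.07% of all genes, a call lost after centring, with no filter and without control liver 91 or 92 or A3B liver 23 or 28), and 5 rose and 7 fell in the lung (beside 16.1% and 20.8%). In the pancreas Hmox2, the constitutive heme oxygenase, rose by 1.39 (adjusted p = 0.00191 by edgeR) and Nfe2l2, an activator of Hmox1, rose by 1.58 (adjusted p = 0.00149). Uros, an enzyme of heme synthesis, fell by 2.87 (adjusted p = 0.000291) there, a call that was lost with total-count scaling (−0.62, adjusted p = 0.245). In the lung Uros fell from 10.9 to 13.8 TPM to 4.18 to 5.68 TPM (−1.18, adjusted p = 0.00339 by limma), and Bach1, the repressor of Hmox1, rose from 126 to 159 TPM to 340 to 428 TPM (1.33, adjusted p = 0.00288) while Hmox1 itself showed no call.

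Of 12 acute phase genes, 0 passed in edgeR in the livers of set 2 and 0 in limma in the livers of set 1, with list medians of 0.38 and 0.42 beside 0.21 and 0.39 for all genes. At an unadjusted p under 0.05 there were 3 in set 2, beside 3985 of 17365 genes, and 2 in set 1, beside 3755 of 11507 genes. DESeq2 called 2 higher and 1 lower in set 2, beside 1300 and 1096 of 17365 genes. In the pancreas Lbp, the lipopolysaccharide binding protein, rose (3.31, adjusted p = 0.000866 by edgeR), and Saa1 had a lower value that rested on control 168 (344 TPM, against 0.235 TPM in control 45 and 0.574 to 5.15 TPM in A3B mice), at −7.93 (adjusted p = 0.00666) with that control and 0.41 without it. In the lung Orm2 alone of 11 rose (0.58, adjusted p = 0.0221 by limma) and none fell, beside 16.1% and 20.8% of all genes, a call lost without A3B lung 70 (0.57, adjusted p = 0.0669) or 74.

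Across the 8 livers of set 2, the genes whose log2(TPM + 1) was most like that of Mt1, out of 6853 genes that averaged 10 TPM or more, were Mt2 (Pearson r 0.993), Rab4a (0.977) and Rnpc3 (0.974). For Hamp they were Sgf29 (0.942), Zfand4 (0.919) and Tmem199 (0.916), and for Tfrc they were Klhl9 (0.993), Pfdn2 (0.988) and Plin4 (0.983). Among the 10 genes, Mt1 ran with Tfrc (0.831) and Hamp (0.746) and against Ftl1 (−0.870) and Trf (−0.870), while Hamp and Hamp2 were little alike (0.303). These are descriptions over 8 samples that share the difference between groups and the scaling of each library.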

How the data were processed

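RNA from 28 mouse tissues was sequenced in bulk. For set 2 the authors quantified transcripts with kallisto, and the deposited tables give estimated counts and TPM for each transcript, which were summed per gene by GENCODE M21 name (116640 of 119414 transcripts matched, the 2774 others holding 0.23 to 1.47% of counts). For set 1 the deposited table gives TPM per gene, which the authors made from read counts of deduplicated alignments with GenomicAlignments and GenomicFeatures. It has 24849 rows, with 4 repeated names and 26 names turned into dates. The study's methods give mm10 as the genome and name STAR with Picard marking duplicates for its genome alignments. Whether those alignments underlie the set 1 table is not stated.

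Rounded estimated counts were filtered with filterByExpr, scaled by TMM and fitted with edgeR 4.0.16 (quasi-likelihood test, R 4.3.3), per tissue (common biological coefficient of variation 0.57 in liver, 0.468 in pancreas). Set 1 was fitted with limma 3.58.1 (trend, robust) on log2(TPM + 1) for genes averaging 1 TPM or more, so fold changes of low genes are understated. All p-values were Benjamini-Hochberg adjusted over all genes of a fit, with a threshold of 0.05, and the scripts ran with fixed seeds and were tested on simulated data. Tables and plots used Python 3.11.15, numpy 2.4.6, pandas 2.3.3 and matplotlib 3.10.9. Alternatives were DESeq2 1.42.0, total-count scaling, no filter, limma on TPM, Y-chromosome expression (Ddx3y and Eif2s3y summing above 1 CPM) as covariate, a pseudocount of 0.1 TPM, centring, a replicate block and leaving out each sample.

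Mouse numbers pair organs because they name the same animal. The correlation of liver and pancreas deviations was 0.213, 0.28, −0.00478, 0.247 and 0.0929 for A3B mice 44, 137, 49, 125 and 153, and 0.00745 for the controls 45 and 168. Named genes were the 10 members, up to 3 genes per pathway list and comparison with the smallest p past the threshold (some are counted but not reported by name here), and the 3 most similar genes for Mt1, Hamp and Tfrc. Members and lists were chosen with earlier results of these data known. Promoters came from a RefSeq table (GRCm38.p6) that held 7 of the 10 genes. Counting error is small for abundant genes at the depth of set 2. It is larger for low ones, such as Hamp in control pancreas 168 (11 counts) and Hmox1 in control pancreas 45 (77 counts). For set 1 it is unknown, as the depth is. The p-values measure spread between mice. The transgene was not analysed here in set 2.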

Additional observations from a re-analysis of the deposited data

Results flagged for a closer look

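Among the A3B livers of set 2, Ftl1 in mouse 49 stood apart from the other 5 at 7360 TPM, against 3404 to 4303 TPM in the others. The same liver had the lowest Mt1, Mt2 and Hamp of the A3B livers and the highest macrophage marker sum (1101 TPM). Hmox1 in mouse 48 stood apart at the low end, at 2.94 TPM against 35.0 to 132 TPM in the other A3B livers, beside the lowest macrophage marker sum (33.7 TPM). Each was picked by the gap to its nearest neighbour over the group's range (Dixon's ratio at its 95% critical value), which by construction picks about 1 of 20 groups by chance, and the part of other cells in these values was not tested.

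The A3B effect on 2 genes differed between organs in the edgeR interaction. For Tfrc the pancreas effect minus the liver effect was −2.24 (SE 0.53, adjusted p = 0.0157). The separate fits per tissue, scaled on their own, gave 2.80 in liver, where 6 of 6 A3B livers were above both controls, and 0.38 in pancreas. For Trf the same interaction was 3.67 (SE 0.98, adjusted p = 0.0251), beside −1.94 in liver, where 6 of 6 A3B livers were below both controls, and 1.54 in pancreas in the separate fits. Tfrc lost its call with total-count scaling and Trf lost it with mouse as a block.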

How the results depend on the processing

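In the livers of set 2 the genes past the threshold went from 636 to 2396 with DESeq2 and 1120 with total-count scaling, and the calls among the 10 genes from 3 to 5 with DESeq2. In the pancreas they went from 6093 to 13683 with total-count scaling and 11553 with limma on TPM, with all 10 genes past in each. In the livers of set 1 the count fell from 913 to 54 with no filter. For pancreas minus liver, total-count scaling gave 8068 genes in place of 2368, and 5 of the 10 in place of 2. The replicate block (mouse) gave 1619 there, with the calls named in the report, and for liver minus lung it gave 2607 in place of 1448, with 1 of the 10 genes, as did a pseudocount of 0.1 TPM (1 of the 10). The replicate block changed no other call among the 10 genes. Leaving out 1 sample at a time gave 73 (without control liver 168) to 1599 (without A3B liver 49) genes and 0 to 5 of the 10 in the livers of set 2. It gave 3829 to 5820 genes and 2 to 3 of the 10 in the pancreas, 1 (without control liver 91) to 1562 (without control liver 11) genes and 0 to 1 of the 10 in the livers of set 1, and 2998 to 4579 genes and 2 to 2 of the 10 in the lung. Each lone remaining control was assumed to vary like the A3B group.

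Signs turned for these genes, none of which had passed except pancreas Saa1. Fth1 in the livers of set 2 was 0.39 with total-count scaling and 0.25 with limma on TPM, and in the livers of set 1 −0.30 after centring. The others turned when 1 sample was left out, with these lowest and highest values. In the livers of set 2, Hamp2 ran from −0.83 (without A3B liver 48, and −0.66 without control 168) to 2.98 (without control 45) and Fth1 from −0.36 to 0.067 (without control 168). In the pancreas, Mt1 ran from −0.020 (without control 168) to 0.58, Fth1 from −0.34 (without control 168) to 0.61 and Saa1 from −8.91 to 0.41 (without control 168). Set 1 livers gave Hamp2 from −2.19 to 0.53 (without A3B liver 28) and Fth1 from −0.00085 (without A3B liver 28) to 0.31. The lungs gave Hamp from −0.041 (without control 87) to 2.13, Slc40a1 from −0.41 to 0.26 (without A3B lung 69) and Trf from −0.23 (without control 91) to 0.39. The causes were not tested. Without A3B liver 70, Tfrc in set 1 could not be fitted.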
